A study of Rattus norvegicus with 2 samples.

Results

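The cytosolic ribosomal protein genes encode the proteins of the ribosome that translates nuclear-encoded mRNA. The rule took every gene whose symbol begins with Rpl or Rps followed by a digit, with Rpsa and Rplp0 to Rplp2, and left out the 8 genes of the Rps6 kinase family. It found 67 of the 13337 named genes, carried by 68 of the 22523 probes. Of these 67 genes, 59 were detected on both arrays, 1 on the EA array only, 1 on the Mock array only, and 6 on neither, where a probe counts as detected at a detection p under 0.01. The label held for 61 of the 67, whose symbols are those of the 77 proteins listed here as the usual set of both subunits. The other 6 are Rpl3l, Rpl7l1, Rpl22l1, Rpl36al1 and Rpl37l1, which carry symbols of paralogs, and Rps19bp1, which encodes a protein that binds Rps19 and is not a ribosomal subunit.

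Both samples were skeletal muscle of streptozotocin-induced diabetic rats (male, Wistar strain, aged 8 to 10 weeks); streptozotocin is a toxin that kills the cells making insulin. The samples, labelled EA (electroacupuncture) and Mock, were each hybridised to 1 Illumina bead array. Per the labels, needles were placed at the ST36 point for 5 min, followed by 60 min of stimulation at 15 Hz and 10 mA. Both samples carry that text, so what the Mock rats received is not stated, and neither are the number of rats, the muscle taken or the time of sampling. With 1 array per group no difference here has a replicate check, a standard error or a p-value, and the effect of EA and other ways in which the samples may differ cannot be told apart.

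The small (40S) subunit reads the mRNA and the large (60S) subunit joins the amino acids. Cells make the proteins of both in near-equal numbers, and in vertebrates most of their mRNAs begin with a run of pyrimidines, the 5′ terminal oligopyrimidine (TOP) tract, through which mTORC1 signalling controls their translation. In muscle the number of ribosomes sets much of the capacity for protein synthesis and for growth under load. The ribosomal mRNAs are abundant and have many processed copies in mammalian genomes, so a probe may also bind RNA from a copy.

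Detected probes numbered 7235 (32.1%) for EA and 6918 (30.7%) for Mock. The raw signal of the 68 ribosomal probes ran from 114 to 51416 on the EA array, with a median of 10747, and from 114 to 43291 on the Mock array, with a median of 10224. Undetected probes had a median of 124 for EA and 119 for Mock. The signal of a probe depends on its sequence as well as on its transcript, so the genes are not ranked here by level. Values below are raw scanner signals, or log2 differences (EA minus Mock) after background correction and quantile normalization. Technical scatter could be gauged from 60 genes with a pair of probes detected on both arrays. The differences of such probes scattered with an SD of 0.25 per probe, which leaves out the variation between animals. In 55% of the 60 pairs both probes had a difference of the same sign, which limits the counts above 0 given below.

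Rpl30 was 12.4-fold lower on the EA array, while the other 58 ribosomal protein genes detected on both arrays lay between -0.61 and 0.79. Rpl30 sits on the face of the 60S subunit that meets the 40S subunit, where it forms part of a bridge between them. In yeast the protein also binds its own transcript and holds back its splicing. Its only probe (ILMN_1372101, RefSeq NM_022699) had a raw signal of 571 on the EA array, against 5749 on the Mock array. The EA signal is thus the low one, and both were well above the level of undetected probes, with a detection p of 0 on each array. The normalized log2 signal was 8.82 on the EA array, 3.17 above the lowest detected probe, and 12.46 on the Mock array, 6.68 above it.

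The log2 difference of Rpl30, -3.63, was the lowest of all 5047 genes detected on both arrays under each of the 6 ways of processing drawn in the plot by processing. It ranged from -2.91 with the authors' deposited values, which is 7.54-fold, to -3.81 after scaling each array to its 75th percentile, which is 14.0-fold. The ratio of the raw signals was 10.1. The next gene in that order was Myh7, the slow myosin heavy chain, at -3.60, so these differ by 0.03, less than the scatter between probes. Tnnc1, the slow and cardiac troponin C, followed at -3.25. The next ribosomal protein gene, Rpl22l1, lay 3.02 above Rpl30. No other probe of Rpl30 was on the arrays under that name, so the value rests on 1 probe. RefSeq (GRCr8) names 15 copies of Rpl30, of which 3 carry a symbol with an l and 12 a symbol with -ps, and for the 61 genes of the usual set the median was also 15, from 1 to 36.

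**Figure D1:**
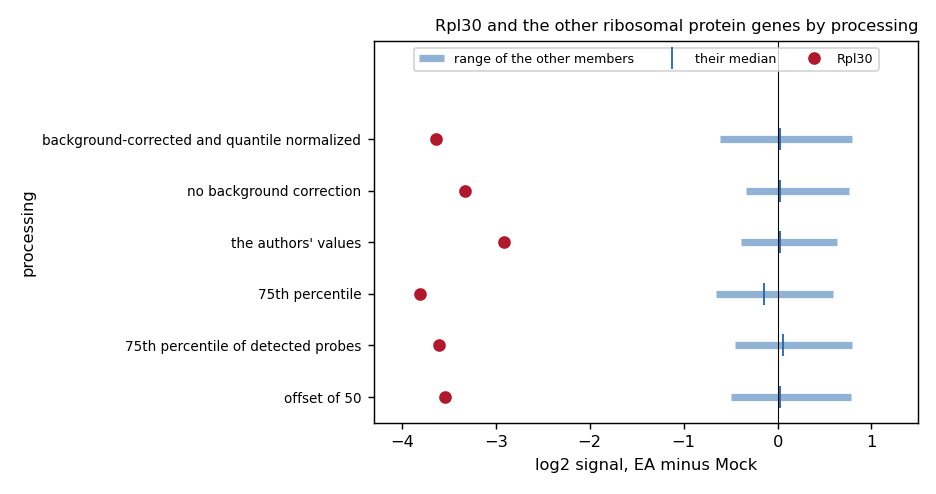
Log2 difference (EA minus Mock, horizontal axis) of Rpl30 (red points) under 6 ways of processing, with the range (blue bars) and median (ticks) of the other 58 ribosomal protein genes. Rpl30 lies between -3.81 and -2.91, outside the blue range in every row.

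**Figure D2:**
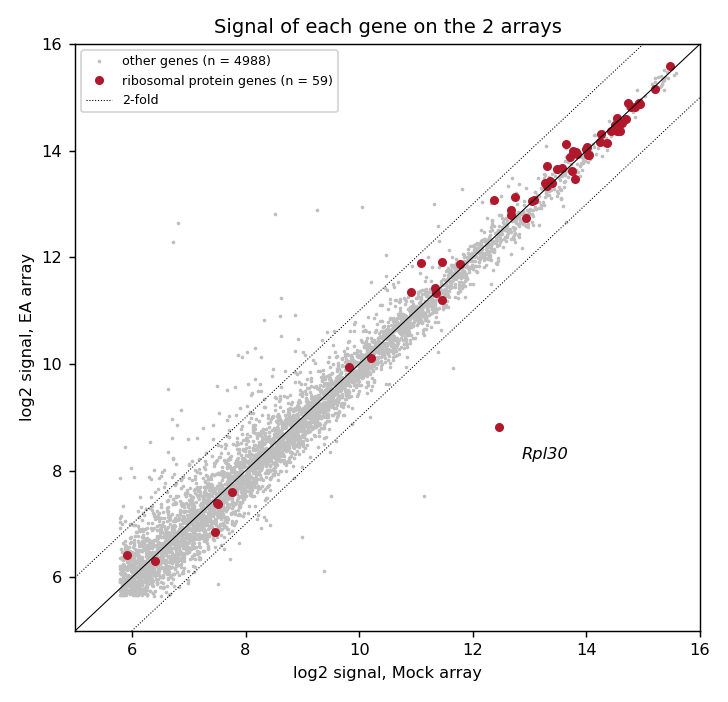
Normalized log2 signal on the EA array (vertical axis) against the Mock array (horizontal axis) for ribosomal protein genes (red, n = 59) and other genes (grey, n = 4988); the solid line marks equality and the dotted lines 2-fold. All red points but Rpl30 lie between the dotted lines.

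Apart from Rpl30 the genes lay close to 0. The median of the 59 was 0.01, against -0.06 for all 5047 genes, and without Rpl30 it was 0.03. On the EA side, 0 of the 59 were 2-fold or more higher, where 2.08% of all genes were, and 1, Rpl30, was 2-fold or more lower, where 0.456% of all genes were. In either direction that is 1.69% of the ribosomal protein genes against 2.54% of all genes. At 1.5-fold, 2 were higher (background 6.28%) and 2 lower (background 3.88%), which is 3.39% each way. Above 0 lay 30 of the 59, or 50.8%, where 41.2% of all genes did. Scaling to the 75th percentile of all probes turned the sign of the median, to -0.15, with the median gene at -0.19. The number of members above 0 was 13 of 59 under that scaling, a smaller share than the 26.8% of all genes. With scaling to the 75th percentile of the detected probes it was 38 of 59, a larger share than the 51.4% of all genes.

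The ribosomal probes were among the brightest on the arrays, where differences between arrays are smaller. Of the 59 genes, 43 belonged to the brightest 10% of all genes detected on both arrays. Their differences had an SD of 0.20 and a median of 0.04, against an SD of 0.25 and a median of -0.05 for the other 462 genes in that bright range. There, 53.5% of ribosomal protein genes lay above 0, against 35.1% of the others. The 16 ribosomal protein genes below it, Rpl30 included, had a median of -0.05. Across the 58 genes other than Rpl30 the difference was nearly unrelated to mean signal (Pearson r = 0.02 across genes, which share the same pair of arrays).

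**Figure D3:**
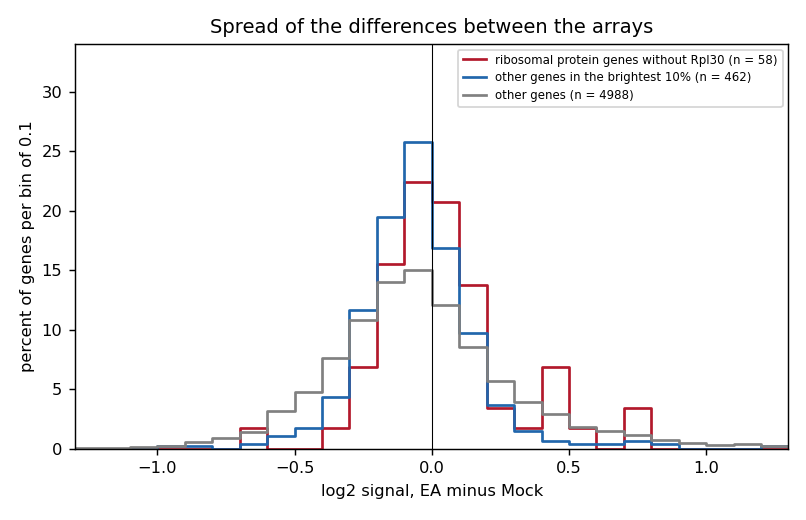
Percent of genes (vertical axis) in each bin of 0.1 of the log2 difference (EA minus Mock, horizontal axis) for ribosomal protein genes without Rpl30 (red, n = 58), other genes in the brightest 10% (blue, n = 462) and other genes (grey, n = 4988). The red curve is about as narrow as the blue one and holds 8 genes above 0.3, a difference that 14.7% of all genes have. The few genes beyond the axis count in the percentages and are not drawn.

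At the higher end of the set, a difference above 0.3 was found for 8 of the 59 genes, or 13.6%, where 14.7% of all genes had one. Of these 8, 6 are in the 60S list, which holds 31 of the 59, 1 is in the 40S list, and 1 is Rpl37l1. Rpl7, a 60S protein, was highest at 0.79, with a raw signal of 3877 on the EA array against 2273 on the Mock array. Rps9, an early-binding protein of the 40S subunit with a part in decoding accuracy, came next at 0.71, with 8902 on the EA array against 5411 on the Mock array. It is the only member with a second probe, which had 1669 on the EA array against 1070 on the Mock array. That probe gave 0.67, so the probes of Rps9 differed by 0.04. These were the members past 1.5-fold on the higher side.

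The remaining 6 lay between 0.39 and 0.51. Rpl5, which carries the 5S ribosomal RNA into the 60S subunit with Rpl11, stood at 0.51, but its raw signal was only 199 on the EA array, against 159 on the Mock array, close to background. Without background correction its difference was 0.19. Rpl17, which lines the exit of the peptide tunnel, had 17958 on the EA array against 12559 on the Mock array, a difference of 0.50. Rpl3, next to the peptidyl transferase centre, had 3932 on the EA array against 2899 on the Mock array, or 0.45. Rpl37l1 differed by 0.44, the 60S protein Rpl10a by 0.41 and Rpl23, which can also bind the p53 regulator Mdm2, by 0.39. In all of these the EA array was the brighter one already in the raw signal.

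At the lower end, past Rpl30, the differences were small. Rpl22l1, a paralog of Rpl22 whose amount Rpl22 restrains in mice, had a raw signal of 231 on the EA array against 271 on the Mock array. Its difference was -0.61, or 1.53-fold lower, but -0.39 with the authors' deposited values and -0.33 without background correction. Both signals were not far above those of undetected probes, with medians of 124 for EA and 119 for Mock. Rpl22 itself differed by -0.02. Rpl39, a short protein in the wall of the peptide exit tunnel, had 11385 on the EA array against 14128 on the Mock array, a difference of -0.34. Rpl13a, which in human monocytes also takes part in silencing inflammatory mRNAs, differed by -0.27. The zinc finger protein Rps27 differed by -0.23, the very short Rpl41 by -0.22, Rpl35a by -0.20 and the 40S protein Rps24 by -0.16. The raw signal of Rps24 was 310 on the EA array against 312 on the Mock array. Between -0.3 and 0.3 lay 48 of the 59 genes, or 81.4%, where 66.4% of all genes did. In size 6 of the 59, or 10.2%, exceeded 0.48, the 95% half-width for 1 probe if the scatter between probes is normal, as did 15.6% of all genes. These 6 were Rpl7, Rps9, Rpl5, Rpl17, Rpl22l1 and Rpl30. With the authors' deposited values Rpl5 (0.32), Rpl17 (0.43) and Rpl22l1 (-0.39) lay within 0.48, a width taken from the background-corrected values.

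**Figure D4:**
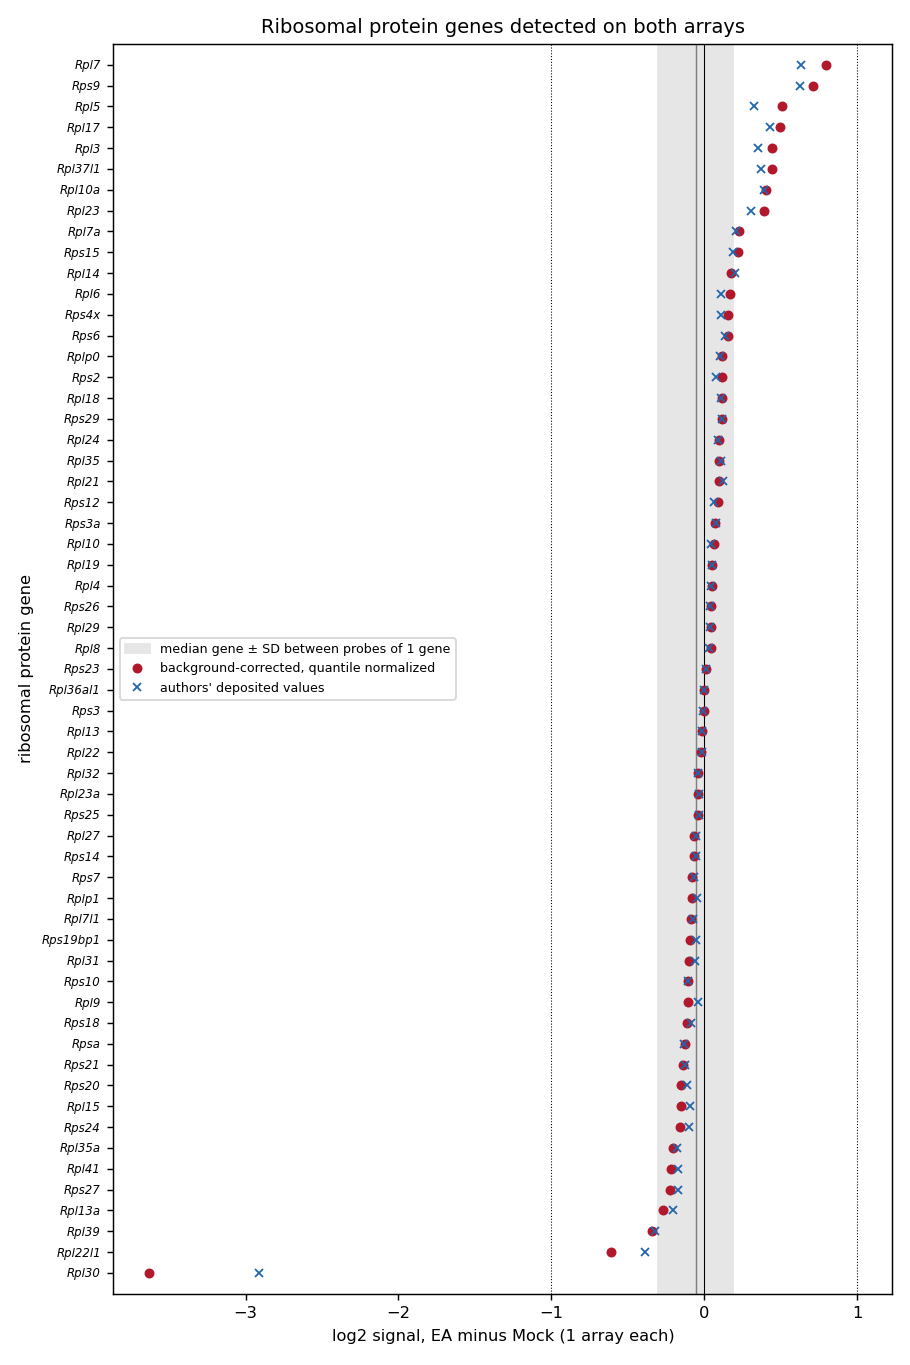
Log2 difference (EA minus Mock, horizontal axis) of each of the 59 ribosomal protein genes detected on both arrays, ordered from highest to lowest, with the background-corrected values (red points) and the authors' deposited values (blue crosses). The grey band is the median gene ± the SD of 0.25 between probes of 1 gene, and dotted lines mark 2-fold; only Rpl30 lies beyond them.

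By subunit, the 21 genes of the 40S list detected on both arrays had a median of -0.0044, with 10 above 0 (background 41.2%). They ran from Rps27 at -0.23 to Rps9 at 0.71. The 31 genes of the 60S list had a median of 0.05, from Rpl30 to Rpl7, with 18 above 0 (background 41.2%). In the P stalk, which recruits elongation factors, Rplp0 differed by 0.12, with 51416 on the EA array against 43291 on the Mock array, and Rplp1 by -0.08. The third stalk protein, Rplp2, was detected on neither array.

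The other genes of the groups to which Rpl30 belongs lay between -0.34 and 0.23. Of the proteins on the 60S side of the subunit bridges, Rpl24 differed by 0.10, Rpl19 by 0.05 and Rpl41 by -0.22. Rpl30 shares its fold with a family of proteins that bind kink-turn RNA. In that family the ribosomal proteins Rpl7a and Rps12 differed by 0.23 and 0.09. Nhp2, a protein of box H/ACA small nucleolar particles, differed by -0.31, Secisbp2, which directs selenocysteine insertion, by -0.34, and the RNase P subunit Rpp38 by -0.02. None of these 8 was 2-fold different, but only 2.54% of all genes were, so a set of this size would hold few or none.

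The other role groups held no gene past 2-fold (background 2.54%), which in groups this small is near that share. At the peptide exit site 6 of 7 listed genes were detected on both arrays, with a median of 0.01 from Rpl39 to Rpl17, and Rpl35, Rpl23a and Rpl31 between 0.10 and -0.10. At the entry and exit of the mRNA channel of the 40S subunit 5 of 7 were detected, with Rps2 at 0.12, Rps26 at 0.04, Rps3 at -0.0044, Rps14 at -0.07 and Rpsa at -0.13. Of the proteins that can bind Mdm2, Rpl5 and Rpl23 were detected on both arrays and are given above, and Rpl11 on neither. Of 18 genes mutated in human Diamond-Blackfan anaemia, an inherited failure of red cell production, 13 were detected on both arrays. Of these 5 lay above 0 (background 41.2%) and 8 below, with a median of -0.08, against -0.06 for all genes.

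**Figure D5:**
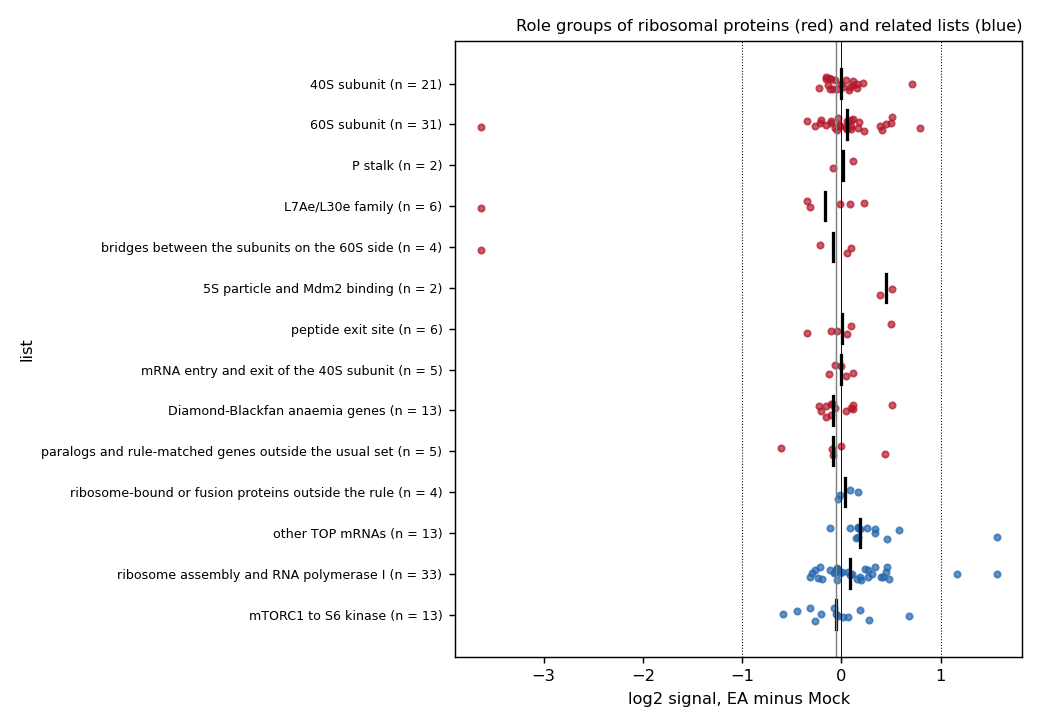
Log2 difference (EA minus Mock, horizontal axis) of each gene detected on both arrays (points, jittered vertically) in the role groups of ribosomal proteins (red) and in related lists (blue), with the median of each list as a black bar and 2-fold as dotted lines. A gene is drawn once in each list that holds it. Rpl30, at -3.63, is the only gene among the red points beyond 2-fold, and Npm1 and Myc are the blue ones. Some red points, such as Nhp2, Secisbp2, Rpp38 and Rps19bp1, are not ribosomal proteins.

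Among the genes outside the usual set, Rpl7l1 differed by -0.09, Rps19bp1 by -0.09 and Rpl36al1 by -0.00086. Rpl3l, the paralog of Rpl3 that heart and skeletal muscle express in mice, was detected on the EA array only, with a raw signal of 163 there against 148 on the Mock array. Rps16, a 40S protein, was detected on the Mock array only, with 158 on the EA array against 161 on the Mock array. Both therefore sat at the detection limit, and no fold is given for them. Rps19, Rpl11, Rpl12, Rpl34, Rpl36a and Rplp2 were detected on neither array. Each of these 6 belongs to the usual set. Their signals give no level, and why they were not detected was not tested. A further 16 proteins of the usual set, among them Rps27a, Rpl26 and Rpl38, had no named probe here.

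The start of the gene was examined because the TOP tract lies there. RefSeq promoters (GRCr8) matched 56 of the 67 genes. The 11 without an entry were Rpl7, Rpl8, Rpl15, Rpl23a, Rpl27, Rpl30, Rpl32, Rpl37l1, Rps20, Rps25 and Rps29. A run of at least 6 bases, each C or T, on the strand of the gene and reaching within 5 bases of the annotated start, was present in 35 of the 56 (62.5%). It was present in 18.7% of all 33469 promoters of that table searched in the same way, and in 0 of the 5 matched genes outside the usual set. The genes detected on both arrays with such a run had a median difference of 0.04 (n = 33) and those without it of 0.09 (n = 15). Windows of 15 bases before and 15 after the start follow for the 13 genes with an entry among the 8 highest and the 8 lowest members, 5′ to 3′, with every such run in capitals.
Rps9, chr1:74430423-74430452, minus strand: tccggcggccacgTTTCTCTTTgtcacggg
Rpl5, chr14:1995211-1995240, minus strand: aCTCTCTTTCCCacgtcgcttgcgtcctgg
Rpl17, chr18:70856261-70856290, plus strand: tagccttcgcgCTTCCTCTTCCTgttagcg
Rpl3, chr7:113507976-113508005, minus strand: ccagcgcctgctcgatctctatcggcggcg
Rpl10a, chr20:6390518-6390547, plus strand: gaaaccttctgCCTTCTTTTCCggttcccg
Rpl23, chr10:83272170-83272199, minus strand: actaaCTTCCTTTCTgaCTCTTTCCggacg
Rps24, chr16:96502-96531, plus strand: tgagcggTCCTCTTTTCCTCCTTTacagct
Rpl35a, chr11:81235007-81235036, minus strand: gcgggtcttgCCTTCCTCTTTCCgccatct
Rpl41, chr7:1563483-1563512, minus strand: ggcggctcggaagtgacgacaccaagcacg
Rps27, chr2:177964592-177964621, minus strand: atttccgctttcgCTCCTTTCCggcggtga
Rpl13a, chr1:104748899-104748928, minus strand: CCTCTTCCTTTCCTaggcggctgccgaaga
Rpl39, chrX:121195882-121195911, minus strand: tcttctaatcgcgTTCTTCCggcctgtcct
Rpl22l1, chr2:113683181-113683210, plus strand: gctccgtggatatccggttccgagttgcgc

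A run was present in 10 of these 13 windows, at both ends of the set. Rps9, Rpl5, Rpl17, Rpl10a and Rpl23 among the higher genes have one, as do Rps24, Rpl35a, Rps27, Rpl13a and Rpl39 among the lower ones. Rpl3, Rpl41 and Rpl22l1 have no such run in the searched bases. The presence of the letters in a window describes the sequence and shows nothing about translation, which these arrays did not measure.

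Other mRNAs with a TOP tract encode mainly translation factors. Of 18 listed, 13 were detected on both arrays, 12 lay above 0 (background 41.2%), and the median was 0.19, against -0.06 for all genes. Npm1, a nucleolar chaperone of ribosome assembly, was at least 2-fold higher (background 2.08%), at 1.56, with the initiation factor subunit Eif3e at 0.58 and the nucleosome assembly protein Nap1l1 at 0.46. Lowest were Tpt1, a tumour-associated translationally controlled protein, at -0.12, then the elongation factor Eef2 at 0.09 and the exchange factor subunit Eef1d at 0.15. The proteins that bind the ribosome but fall outside the rule stood near 0, with Rack1, a scaffold on the 40S subunit, at 0.17, Eef2 as given, and the nascent-chain binders Btf3 and Naca at -0.02 and -0.04.

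Of 45 genes of ribosome assembly and RNA polymerase I, 33 were detected on both arrays, with a median of 0.09 and 19 above 0 (background 41.2%). At least 2-fold higher were 2 (background 2.08%), Npm1 again and Myc, a transcription factor that drives ribosome production, at 1.17. None was 2-fold lower (background 0.456%). Nop56, a core protein of box C/D particles, followed at 0.48. With the authors' deposited values Myc differed by 0.79, which is under 2-fold, and Npm1 by 1.28. Lowest were Nhp2 at -0.31, the polymerase I subunit Polr1a at -0.30 and the 40S export factor Ltv1 at -0.27. In the list of mTORC1 to S6 kinase 13 of 21 were detected on both arrays, with a median of -0.06 and none at 2-fold (background 2.54%). Eif4ebp2, a repressor of cap-dependent translation, was highest at 0.68, above the mTORC1 inhibitor Akt1s1 at 0.28 and Eif4ebp1 at 0.18. Ddit4, another inhibitor of mTORC1, was lowest at -0.58, then the elongation factor kinase Eef2k at -0.45 and the mTORC1 subunit Mlst8 at -0.32. The kinases that phosphorylate Rps6, Rps6kb1 and Rps6kb2, differed by 0.06 and -0.03, and Rps6 itself by 0.15.

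Markers of several cell types differed between the arrays beside these values. Of all genes detected on both arrays, 41.2% lay above 0, which is the background for the counts above 0 here. All 13 muscle fibre markers with a probe were detected on both arrays, with a median of 0.00, 6 above 0 and 6 below. They ran from Myh2 at -0.99 to Myh4 at 0.70. Their summed raw signal was 395592 on the EA array against 364684 on the Mock array. Slow fibre markers were lower, with 4 of 8 detected on both arrays, all below 0 at a median of -2.62, and a sum of 3031 on the EA array against 7985 on the Mock array. Another 2 of them, Tnnt1 and Myl3, were detected on the Mock array only, with 153 and 158 on the EA array against 397 and 518 on the Mock array. Tnni1 and Myl2 were detected on neither array, with 104 and 137 on the EA array against 144 and 135 on the Mock array. All 9 fibroblast and matrix markers were above 0, with a median of 1.20 and a sum of 21096 on the EA array against 12107 on the Mock array. Endothelial markers had a median of 1.00 (5 of 9 detected, 4 above 0, with Cdh5 and Tek not detected) and a sum of 2418 on the EA array against 1492 on the Mock array. Markers of macrophages and leukocytes had a median of 0.36 (5 of 11, all above 0, Ptprc and Cd53 not detected) and a sum of 2792 on the EA array against 2079 on the Mock array. Cd14 was detected on the EA array only, with 171 there against 142 on the Mock array, and Tyrobp on the Mock array only, with 148 on the EA array against 156 on the Mock array. Erythrocyte markers had a median of 0.70 (5 of 9, 3 above 0, with Hba-a2, Alas2 and Slc4a1 not detected). Their sum was 33772 on the EA array against 20854 on the Mock array. In bulk tissue fewer cells of a type and less RNA per cell cannot be told apart, and the part of these cell types in the ribosomal values was not tested.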

How the data were processed

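Per the labels, total RNA was turned into biotinylated cRNA. The values are those of the deposited non-normalized table, which per the file headers gives an intensity and a detection p-value per probe; the deposited intensity is linear and, with undetected probes far above 0, shows no background subtraction. Intensity values normalized by the authors, in their series table, served as an alternative. For neither their normalization nor the scanner software is a name given in the sources used here.

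The nec function of limma 3.58.1 (R 4.3.3) estimated and removed background by way of those p-values. Arrays were then quantile normalized with an offset of 16 and set on the log2 scale. Later steps ran in Python 3.11.15 (matplotlib 3.10.9, pandas 2.3.3, numpy 2.4.6). The steps were tested on simulated data. Symbols came from the platform annotation of 13793 probes, updated against RefSeq GRCr8 by gene identifier (13752) or accession (5), and 36 kept the platform symbol. A gene with several probes took its brightest detected one. The number of arrays limits the precision, and no test was run.

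Genes are named by a rule: Rpl30, the 8 highest and 8 lowest members, members with several probes, members not detected on both arrays, the role groups, and the highest and lowest 3 of each related list. The members, Rpl30 and the lists were chosen with earlier results of these data known, so they are no independent support for any pattern. Genes detected on 1 array are given as raw signals, with no fold.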

Additional observations from a re-analysis of the deposited data

How the results depend on the processing

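Rpl30 was the only member 2-fold different under all 9 alternatives that kept it, and without it the count was 0. Its log2 difference was -3.32 without background correction and -2.91 with the authors' values. The median of the members, 0.01, changed sign to -0.15 with scaling to the 75th percentile and to -0.0044 with no detection filter. It was 0.055 with scaling to the 75th percentile of the detected probes, an alternative chosen after seeing the data. The members above 0 numbered 13 under the first scaling, a smaller share than the 26.8% of all genes. That scaling moved the median of all genes to -0.19, and the members stood 0.05 above it, against 0.07 as reported. Of the 15 other named members, only Rpl22l1 and Rpl5 moved by more than 0.25, to -0.33 and 0.19, both without background correction. No paired analysis was possible because each group had 1 array. Members near background, such as Rpl5, Rpl22l1, Rps16 and Rpl3l, are limited by signal.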

Other observations

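Taken as raw signal with no processing, the ribosomal probes summed to 830901 for EA and 792671 for Mock. That was 5.79% of the signal of all probes for EA and 5.70% for Mock. The sum weights the brightest probes most, so Rpl30 contributed little to it: without Rpl30 the share was 5.79% for EA and 5.66% for Mock.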
